A study of Mus musculus with 4 samples.

Results

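Genes for potassium channels, voltage-gated calcium channels and transient receptor potential (TRP) channels were examined in mouse aorta. Members were all gene symbols that begin with Kcn and a further letter, with Cacna, Cacnb or Cacng, or with Trpc, Trpv or Trpm and a digit. This gave 100 genes of the 12394 with a probe set of a single symbol, and 145 of the array's 22690 probe sets. Each gene was read from its probe set with the highest mean over the groups. Symbol matching also took in partner proteins that are not pores, among them Trpc4ap, which encodes a protein that binds TRP channel subunits.

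All aortas came from female mice on the C57BL/6 background, aged 12 to 14 weeks, that had lost their ovaries 1 week earlier. Wild-type mice (WT) were set against disrupting peptide mice (DPM), in which the broadly active CMV promoter drives a peptide of estrogen receptor alpha (residues 176 to 253) that separates the receptor from striatin and so hinders its non-genomic signals. Each group's aortas received 10 nM estradiol (E2) or the ethanol vehicle outside the body over 4 h, and 4 aortas made up a sample. Sample titles list 2 replicates in the WT E2 and DPM E2 groups and 3 in both vehicle groups, but each group has 1 deposited log2 level, so the spread between arrays is known only through the deposited p-values. Those p-values give the DPM response an SE 1.33 times that of the WT response on every probe set used, where the replicate numbers in the titles with equal weights would give 1; the reason was not tested. Values after ± are standard errors (SE) recovered from those p-values, and all differences are on the log2 scale.

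Potassium channels let potassium leave the muscle cell, which holds its membrane negative and keeps the vessel relaxed. Voltage-gated calcium channels open when that membrane depolarizes and admit the calcium that drives contraction, and many TRP channels are cation channels that respond to stretch, to emptied calcium stores or to receptor signals. In arterial muscle the pores work with auxiliary subunits, which set where they go and how readily they open.

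The median level of the 8 smooth muscle markers measured was high in all groups, at 10.31 to 10.63. None of the 8 lay at the array's lowest level of 2.29. Des was the lowest of them in every group, with levels from 4.64 in DPM E2 to 5.50 in DPM vehicle. The 10 heart muscle markers had median levels of 3.27 in WT vehicle, 2.70 in WT E2, 6.998 in DPM vehicle and 3.18 in DPM E2. Their summed linear signal in DPM vehicle was 8.27 times that in WT vehicle, and in DPM E2 it was 1.19 times. The Gapdh 5′ quality control probe set differed by -1.21 between DPM E2 and DPM vehicle, and the Gapdh 3′ one by 0.10. In such pooled tissue, fewer cells of a type and less RNA per cell cannot be told apart.

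Most channel genes had little signal on the array. Level can depend on the probe set: those of Trpm7 had means of 7.17, 6.68 and 2.57. A low level thus does not show that a gene is silent. A mean level of at least 5 over the 4 groups was reached by 9 members, or 9% of them, while 39.8% of all genes reached it. In all 4 groups 43 members lay within 0.05 of the lowest level, 43% of them against 24.3% of all genes. By class, 5 of 62 potassium channel symbols, 1 of 23 calcium channel symbols and 3 of 15 TRP symbols reached 5. The 9 genes were Kcnj8, Kcnmb1, Kcnh2, Kcnab1, Kcne4, Cacna1c, Trpm7, Trpv2 and Trpc4ap. At the threshold, Kcnh2 was just inside with a mean of 5.01 and Trpc1 just outside with 4.96. Without their highest group 7 of the 9 genes still averaged at least 5. The exceptions were Kcnj8, at 4.98 without DPM E2, and Kcnh2, at 4.93 without DPM vehicle, so these 2 entered the tests only through the group in which they were highest.

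**Figure D1:**
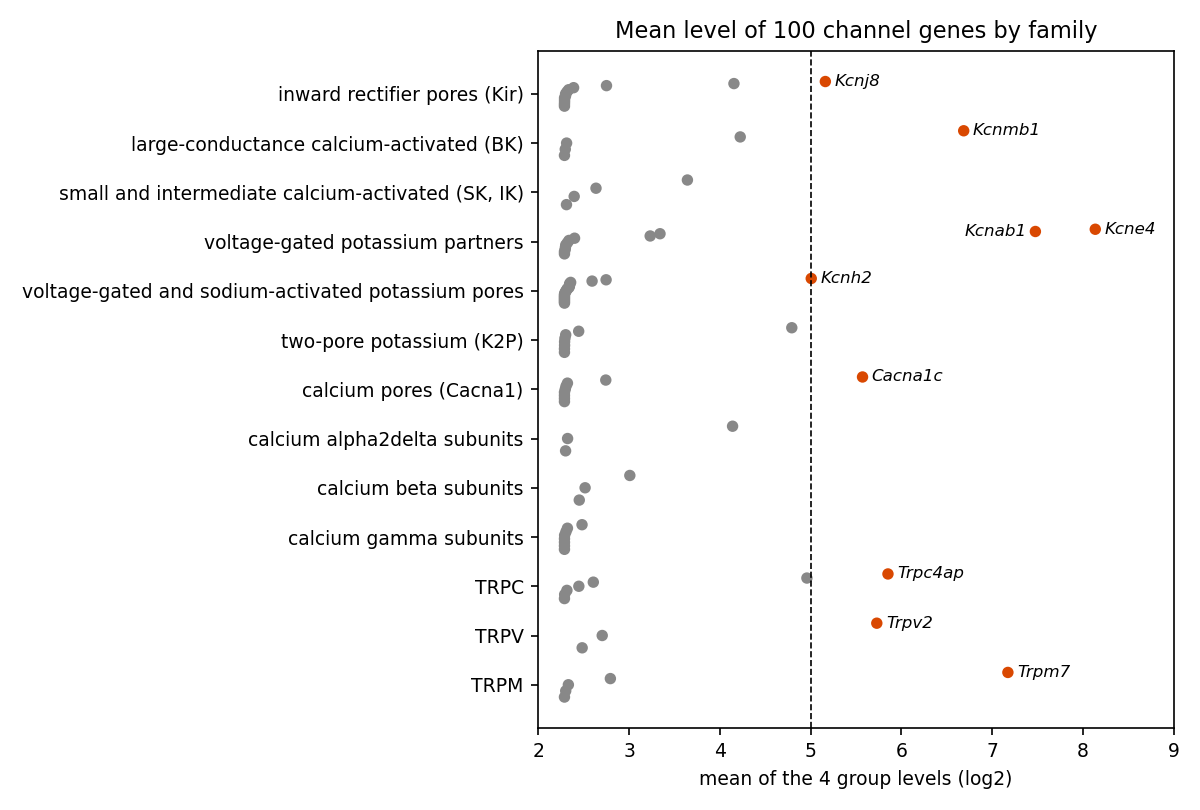
Mean of the 4 group levels (horizontal axis, log2) for each of the 100 genes, arranged by family, with a dashed line at 5. Orange points are the 9 genes that reached 5, and most grey points crowd near the lowest level of 2.29. The family labelled voltage-gated and sodium-activated held no sodium-activated pore gene, and the BK family includes Kcnu1.

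Of the 13 inward rectifier genes, Kcnj8 alone reached 5. Kcnj8 encodes Kir6.1, the pore of the ATP-sensitive potassium channel of vascular muscle, which relaxes vessels when it opens. Its level was 5.08 in WT vehicle, 5.15 in WT E2, 4.70 in DPM vehicle and 5.72 in DPM E2. DPM held both the lowest and the highest of these levels, with both WT groups between them. In DPM, Kcnj8 was higher with E2 by 1.02 ± 0.26, a 2.03-fold difference with a 95% interval of 0.40 to 1.64, at an unadjusted p of 0.00666 in the authors' deposited table. In WT the difference was 0.074 ± 0.19, with an interval of -0.40 to 0.54. The DPM response minus the WT response was 0.95 ± 0.32, with an unadjusted p of 0.0246 in the authors' deposited table. After adjustment of the deposited limma p over the 4927 genes that reached level 5, the values for Kcnj8 were 0.778 for the DPM response and 0.990 for the difference between responses, so neither passed. Since Kcnj8 reached the level threshold only through DPM E2, its place among the 9 rests on the same high value as this difference.

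Over both genotypes Kcnj8 was higher with E2 by 0.55 ± 0.16 (unadjusted p = 0.0135, adjusted p = 0.522, limma test rebuilt from the recovered errors). DPM minus WT in Kcnj8 was -0.38 in vehicle and 0.56 in E2, each with an SE of at most 0.32. In the DPM response, 0 of 10 heart markers were higher with E2 (median -3.23), while 6 of 7 leukocyte markers (median 0.33) and 1 of 8 smooth muscle markers (median -0.061) were. The part of any of these cell types in the Kcnj8 difference was not tested. E2 minus vehicle in DPM was -1.21 in the Gapdh 5′ control and 0.10 in the Gapdh 3′ control, and the part of RNA quality was not tested either. Abcc9 encodes SUR2, the regulatory subunit that assembles with Kir6.1. Its level was 7.68 in WT vehicle, 7.82 in WT E2, 7.61 in DPM vehicle and 7.66 in DPM E2. E2 minus vehicle in Abcc9 was 0.13 ± 0.22 in WT and 0.056 ± 0.29 in DPM, each smaller than its error.

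The sequences upstream of Kcnj8, Trpv2 and Kcnab1 are shown because these are the genes among the 9 with an unadjusted p under 0.05 in any comparison. Each is the 250 bases before the start, 5′ to 3′ on the gene's strand, from RefSeq on GRCm38.p6, with CG dinucleotides in capitals. For Kcnj8 it is chr6:142571615-142571864 on the minus strand, for Trpv2 chr11:62574236-62574485 and for Kcnab1 chr3:64948962-64949211, both on the plus strand. Trpv2 and Kcnab1 have 3 windows each in the RefSeq table, of which the first listed is shown.
Kcnj8: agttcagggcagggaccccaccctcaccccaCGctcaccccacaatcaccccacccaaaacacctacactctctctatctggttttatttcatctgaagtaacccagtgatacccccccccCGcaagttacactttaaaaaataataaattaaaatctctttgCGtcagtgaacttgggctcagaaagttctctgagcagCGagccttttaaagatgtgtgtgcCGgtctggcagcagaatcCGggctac
Trpv2: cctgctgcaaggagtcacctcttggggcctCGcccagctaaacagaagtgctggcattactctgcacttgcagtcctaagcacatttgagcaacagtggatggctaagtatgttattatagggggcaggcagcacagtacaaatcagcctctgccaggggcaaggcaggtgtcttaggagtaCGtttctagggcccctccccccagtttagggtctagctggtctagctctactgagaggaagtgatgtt
Kcnab1: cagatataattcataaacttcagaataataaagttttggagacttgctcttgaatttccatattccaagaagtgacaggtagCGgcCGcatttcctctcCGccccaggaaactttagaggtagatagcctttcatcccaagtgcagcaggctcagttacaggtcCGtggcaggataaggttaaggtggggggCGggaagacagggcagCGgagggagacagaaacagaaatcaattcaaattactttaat
These stretches held 6, 2 and 6 CG dinucleotides in that order, beside a median of 6 over all windows of the table.

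Windows of 300 bases, from 250 before to 50 after the start, were searched on both strands for 3 motifs. They were the AP-1 motif TGANTCA, the palindromic estrogen response element and the CArG box of serum response factor. Each window was scored only as holding a match or not. All 9 genes had a window, 15 in total, and 0 of the 15 held any of the 3 motifs. Over the 32851 windows of the table, 7.81% held the AP-1 motif, 0.07% the estrogen response element and 1.63% the CArG box. Among all members 83 had a window; 5 of their 112 windows held AP-1, 1 held a CArG box and 0 held the estrogen response element. A missing match says only that these letters are absent from the window.

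Of 5 genes, those of the large-conductance calcium-activated (BK) channel and Kcnu1, Kcnmb1 reached 5. It encodes the beta1 subunit that raises the calcium sensitivity of the channel in arterial muscle. Kcnmb1 stood at 6.69 in WT vehicle, 6.59 in WT E2, 6.65 in DPM vehicle and 6.82 in DPM E2. These levels span 0.23, and E2 minus vehicle was -0.097 ± 0.25 in WT and 0.18 ± 0.34 in DPM. The intervals, -0.70 to 0.51 in WT and -0.63 to 0.99 in DPM, include 0 and also sizeable differences. A further Kcnmb1 probe set lay between 3.29 and 3.52. The pore gene Kcnma1 did not reach 5, with 4.25 in WT vehicle, 4.20 in WT E2, 4.33 in DPM vehicle and 4.12 in DPM E2.

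Among the voltage-gated potassium channel genes Kcna, Kcnc, Kcnd, Kcnh, Kcnq and Kcns, 1 of 20 reached 5. Kcnh2, which encodes the ERG pore that repolarizes heart muscle, stood at 4.71 in WT vehicle, 5.08 in WT E2, 5.24 in DPM vehicle and 4.99 in DPM E2. E2 minus vehicle was 0.38 ± 0.29 in WT and -0.25 ± 0.39 in DPM, opposite in sign and with intervals that include 0. The responses differed by -0.63 ± 0.48 (unadjusted p = 0.242 in the authors' deposited table). Kcnh2 was highest in DPM vehicle, where the heart markers were highest too. DPM minus WT in vehicle was 0.54 for Kcnh2 and a median of 3.21 for the heart markers. With E2 both were lower in DPM, at -0.25 for Kcnh2 and a median of -3.23 for the heart markers. In WT they moved in opposite directions with E2, at 0.38 for Kcnh2 and a median of -0.24 for the heart markers. Kcnh2 reached the level threshold only through DPM vehicle, with a mean of 4.93 without it. The 0.54 thus rests on the group that selected the gene. Whether heart tissue has a part in the Kcnh2 level of DPM vehicle was not tested.

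The partners of voltage-gated potassium pores supplied 2 of the 9 genes, Kcnab1 and Kcne4. Kcnab1 encodes Kv beta1, a cytoplasmic subunit that speeds the inactivation of Kv1 channels. Its level was 7.73 in WT vehicle, 7.95 in WT E2, 7.21 in DPM vehicle and 7.02 in DPM E2. Both DPM levels lay below both WT levels. DPM minus WT was -0.52 in vehicle and -0.92 in E2, the latter a 1.89-fold difference, each with an SE of at most 0.36. Averaged over both treatments the difference was -0.72 ± 0.18, with an interval of -1.15 to -0.29. It had an unadjusted p of 0.0059 by the rebuilt limma test and an adjusted p of 0.662, which is above the threshold.

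The other Kcnab1 probe set pointed the same way. Its levels were 5.61 in WT vehicle, 5.92 in WT E2, 5.15 in DPM vehicle and 4.11 in DPM E2. Here DPM minus WT was -0.46 in vehicle and -1.81 in E2, with an average of -1.13 ± 0.38 (unadjusted p = 0.0224, limma rebuilt). The probe sets read the same RNA and are not replicates. In the averaged comparison 10 of 10 heart markers were higher in DPM (median 1.91) and 2 of 8 smooth muscle markers were (median -0.062), and their part in the Kcnab1 difference was not tested. DPM minus WT in the Gapdh 5′ control was 0.67 in vehicle and -1.09 in E2, and in the Gapdh 3′ control -0.18 and -0.041, and the part of RNA quality was not tested either. The genotype difference of Kcnab1 moved with treatment by -0.40 ± 0.36, close to its error.

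Kcne4 encodes a single-span subunit that modulates Kv1 and Kv7 channels. It stood at 8.29 in WT vehicle, 8.08 in WT E2, 8.14 in DPM vehicle and 8.04 in DPM E2, so vehicle was above E2 in both genotypes. E2 minus vehicle was -0.21 ± 0.091 in WT (unadjusted p = 0.0566 in the authors' deposited table, adjusted limma p = 0.724) and -0.098 ± 0.12 in DPM. The average over both genotypes was -0.16 ± 0.076, with an interval of -0.34 to 0.028. It was -0.20 when centred on the median of all genes and -0.19 when quantile normalized, and in both of these settings its unadjusted limma p was under 0.05 while its adjusted one was not.

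Of 9 calcium pore genes, Cacna1c reached 5. It encodes the pore of the L-type channel Cav1.2, the main route of calcium entry into arterial muscle on depolarization. Its levels were 5.68 in WT vehicle, 5.41 in WT E2, 5.61 in DPM vehicle and 5.59 in DPM E2. E2 minus vehicle was -0.26 ± 0.29 in WT, with an interval of -0.97 to 0.44, and -0.015 ± 0.39 in DPM, with an interval of -0.95 to 0.92. DPM minus WT averaged 0.054 ± 0.24. None of these exceeded its error. None of the auxiliary calcium channel genes reached 5: 0 of 3 alpha2delta, 0 of 3 beta and 0 of 8 gamma subunits did. Cacna2d1, for the alpha2delta1 subunit, stood at 4.13 in WT vehicle, 4.14 in WT E2, 4.00 in DPM vehicle and 4.29 in DPM E2.

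Of 15 TRP symbols, Trpm7, Trpv2 and Trpc4ap reached 5. Trpv2 encodes a cation channel that responds to stretch in arterial muscle and is also used by leukocytes. It stood at 5.55 in WT vehicle, 5.97 in WT E2, 5.63 in DPM vehicle and 5.76 in DPM E2. WT E2 was the highest group, and both vehicle groups were the lowest. E2 minus vehicle was 0.42 ± 0.081 in WT, a 1.34-fold difference with an interval of 0.23 to 0.62, at an unadjusted p of 0.00161 in the authors' deposited table and an adjusted limma p of 0.230. In DPM it was 0.13 ± 0.11, with an interval of -0.13 to 0.39.

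The Trpv2 responses differed by -0.29 ± 0.14 at an unadjusted p of 0.0703 in the authors' deposited table, so they were not shown to differ; centred on the median of all genes, the difference was -0.36 with an unadjusted limma p of 0.0344. Averaged over both genotypes, Trpv2 was higher with E2 by 0.28 ± 0.068 (unadjusted p = 0.00552, adjusted p = 0.394, limma rebuilt). Beside the WT difference, 3 of 7 leukocyte markers (median -0.084) and 9 of 10 endothelial markers (median 0.38) were higher with E2, and their part was not tested. Trpv2 has 1 probe set, so no other reading of it was at hand.

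Trpm7, a magnesium and calcium channel joined to a kinase domain, stood at 7.29 in WT vehicle, 7.35 in WT E2, 7.05 in DPM vehicle and 7.001 in DPM E2. Both DPM levels were below both WT levels, with an average difference of -0.30 ± 0.25 (unadjusted p = 0.271, limma rebuilt), and a further probe set gave -0.25 ± 0.25. The remaining Trpm7 probe set, at levels of only 2.51 to 2.61, gave -0.050 ± 0.038. At the probe set used, the E2 differences of Trpm7 were 0.063 ± 0.30 in WT and -0.045 ± 0.40 in DPM. Trpc4ap stood at 5.90 in WT vehicle, 5.94 in WT E2, 5.78 in DPM vehicle and 5.80 in DPM E2, the narrowest span of the 9 genes at 0.16. DPM minus WT in Trpc4ap averaged -0.13 ± 0.068, with an interval of -0.29 to 0.035.

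**Figure D2:**
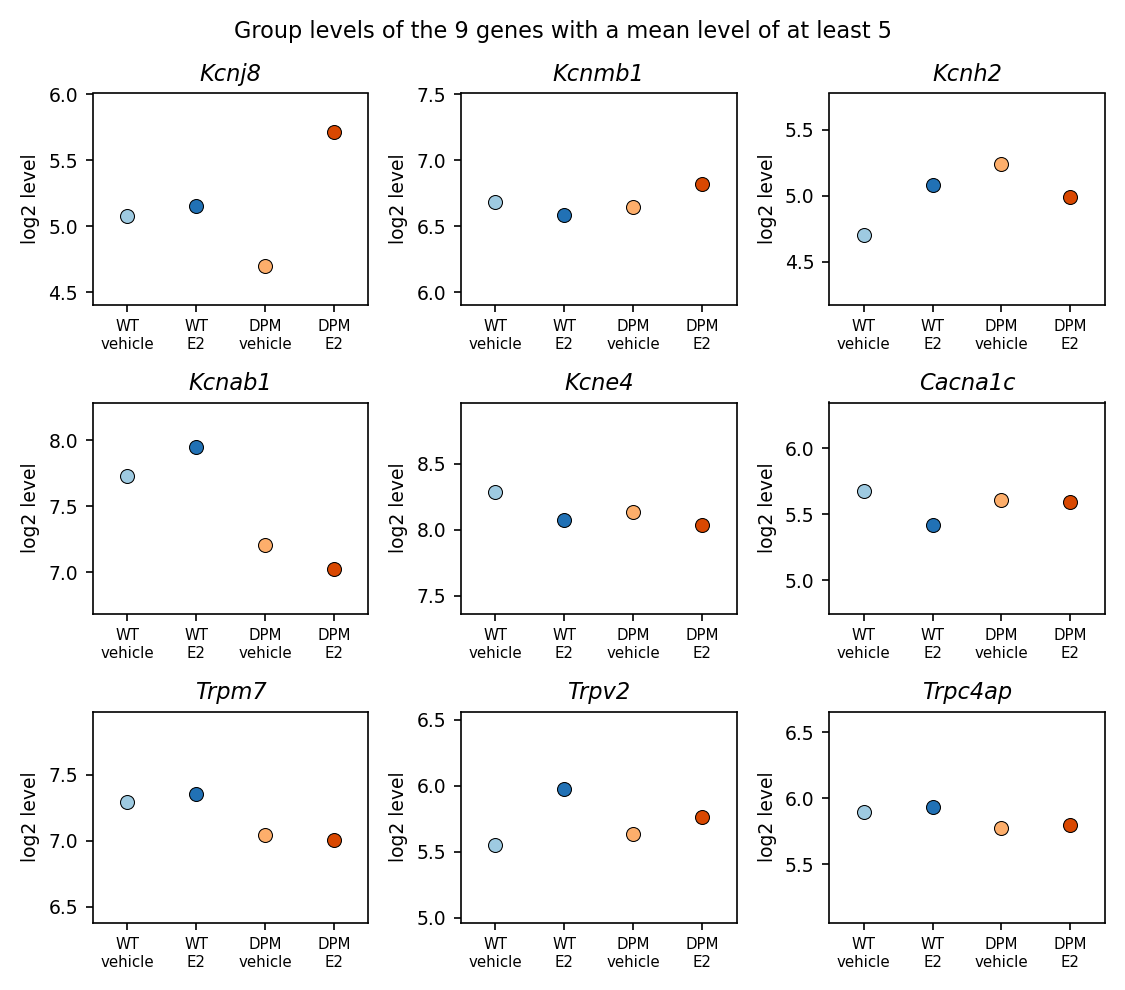
Deposited log2 level (vertical axis, each panel spanning the same range) of the 9 genes in WT vehicle, WT E2, DPM vehicle and DPM E2, 1 point per group. Kcnj8 spans 4.70 to 5.72 within DPM, and for Kcnab1 both DPM points, 7.21 and 7.02, lie below both WT points.

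Over the 9 genes, the response to E2 in WT was above 0 in 6 and below 0 in 3, with a median of 0.063 beside 0.0073 over all genes tested. At an unadjusted p under 0.05 in the authors' deposited table stood 1 of the 9, Trpv2, where 6.76% of all genes did, and 0 of the 9 passed an adjusted limma p of 0.05, where 0.0203% of all genes did. None reached 1.5-fold in WT, against 2.03% of all genes. In DPM, 4 were above 0 and 5 below, with a median of -0.015 beside 0.081 over all genes tested. Kcnj8 was the 1 member at an unadjusted p under 0.05, against 5.01% of all genes in the authors' deposited table, and the 1 at 1.5-fold, against 3.25%. Its place among the 9 rests on its DPM E2 level, so these counts support nothing about the channel genes. By the adjusted limma p, 0 of 9 passed in DPM, against 0.0203%.

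For the difference between the responses, 4 members were above 0 and 5 below, with a median of -0.019 beside 0.069 over all genes tested. Kcnj8 alone had an unadjusted p under 0.05, where 4.12% of all genes did in the authors' deposited table, and 0 of 9 passed by adjusted limma p, where 0.0203% did. At 1.5-fold stood Kcnj8 upwards and Kcnh2 downwards, where 5.93% of all genes stood. Both are the genes that reached the level threshold only through their highest group, so their counts in these comparisons support nothing about the channel genes. With 9 genes, counts of 0 and 1 are close to these background shares.

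**Figure D3:**
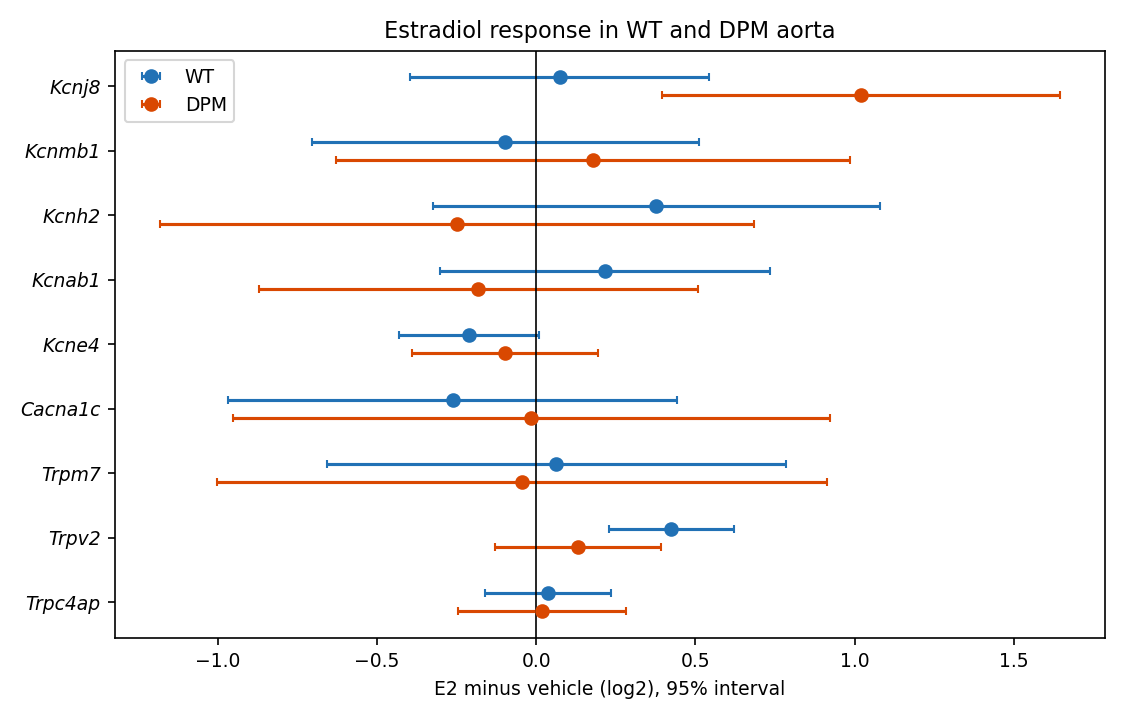
E2 minus vehicle (horizontal axis, log2) in WT (blue) and DPM (orange) for the 9 genes, with 95% intervals from the recovered errors. The intervals lie wholly above 0 for Trpv2 in WT (0.23 to 0.62) and Kcnj8 in DPM (0.40 to 1.64).

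Averaged over both genotypes, 7 of the 9 were above 0 with E2, and the median was 0.029 beside 0.040 over all genes tested. Kcnj8 and Trpv2 had an unadjusted p under 0.05 by the rebuilt limma test, where 7.59% of all genes did. By the adjusted p of that test 0 of 9 passed, where 0.0406% of all genes did. Since Kcnj8 reached level 5 only through DPM E2, its count here supports nothing about the channel genes. None of the 9 reached 1.5-fold, against 0.913% of all genes. Averaged over both treatments, 4 members were higher and 5 lower in DPM than in WT, with a median of -0.063 beside 0.00031 over all genes tested. Kcnab1 was the 1 member at an unadjusted p under 0.05 by that test, where 5.68% of all genes were, and the 1 at 1.5-fold, against 0.731%. An adjusted p under 0.05 was had by 0 of the 9 and by 0% of all genes.

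Within a treatment the deposited values give no p for DPM against WT. At 1.5-fold, 0 of 9 members stood apart in vehicle, where 2.62% of all genes did, and Kcnab1 alone in E2, where 1.77% did. All comparisons share groups, so they are not independent of one another.

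**Figure D4:**
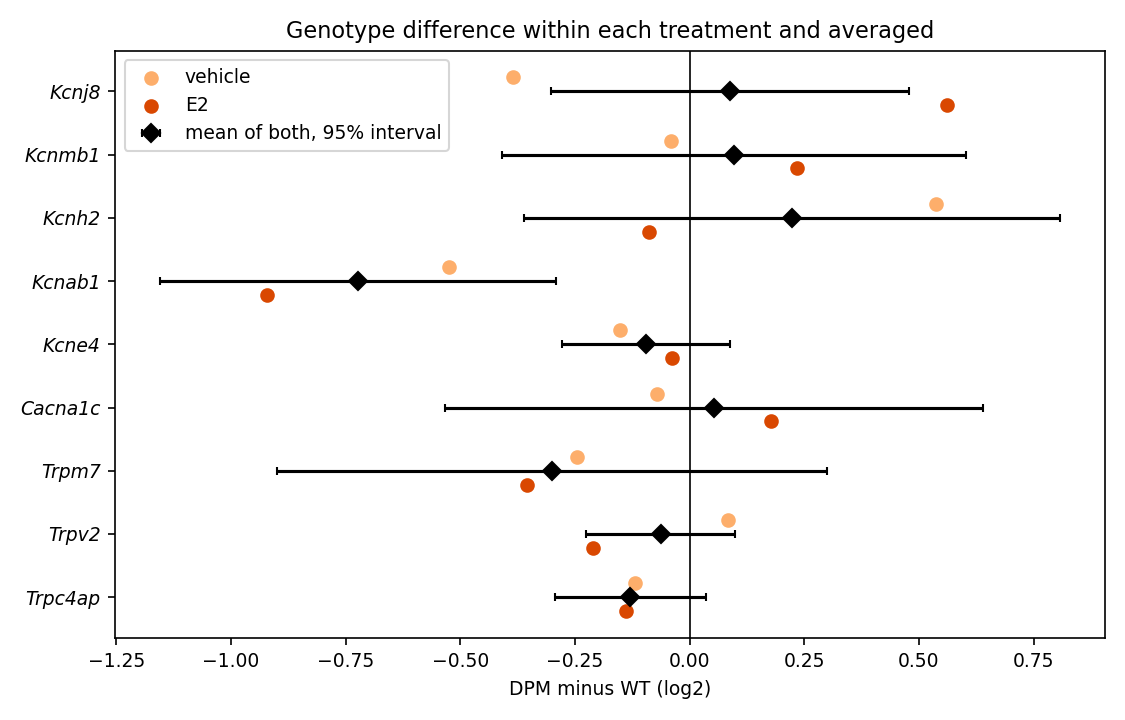
DPM minus WT (horizontal axis, log2) of the 9 genes in vehicle, in E2 and averaged over both, the average with its 95% interval. The interval of Kcnab1 (-1.15 to -0.29) is the 1 that excludes 0, and Kcnj8 lies at -0.38 in vehicle and 0.56 in E2.

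Of the 91 members under a mean of 5, 2 reached it in some groups. Trpc1, a subunit of receptor-operated cation channels, stood at 4.98 in WT vehicle, 5.20 in WT E2, 4.65 in DPM vehicle and 5.01 in DPM E2. Its E2 differences were 0.22 ± 0.23 in WT and 0.36 ± 0.31 in DPM, both above 0 with intervals that include 0. Kcnk3 encodes the tandem-pore channel TASK-1, which helps to set the resting potential. It stood at 4.59 in WT vehicle, 5.22 in WT E2, 4.89 in DPM vehicle and 4.46 in DPM E2, with E2 differences of 0.63 ± 0.54 in WT and -0.43 ± 0.72 in DPM. Such wide errors give no order among these groups.

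Of the 91, 82 had a mean under 3 and 43 lay at the lowest level in every group. The 8 gamma subunits of calcium channels had means of 2.29 to 2.48. At the lowest level throughout lay 10 of the 20 voltage-gated potassium channel genes from Kcna to Kcns. Kcna5, the pore of Kv1.5, and Kcnj2, the inward rectifier Kir2.1, were among the 43. Kcnj3, a pore of the G protein-gated channel of heart atria, stood at 4.13 in WT vehicle, 4.13 in WT E2, 4.25 in DPM vehicle and 4.13 in DPM E2. The levels other than that of DPM vehicle were identical, and whether 4.13 is signal or the background of that probe set was not tested. E2 minus vehicle in DPM was -0.12 ± 0.13 for Kcnj3, smaller than its error. In DPM vehicle alone 9 members stood above the lowest level by at least 0.05, at no more than 2.51, where 2.61% of all genes did; they were Kcnd2, Kcnj11, Trpm1, Kcna1, Kcns2, Cacna1g, Cacng6, Cacna1h and Cacng3. The corresponding numbers of members were 3 for WT vehicle, 5 for WT E2 and 3 for DPM E2, beside 1.41%, 1.61% and 0.839% of all genes. Such shares are not like for like, as 39.8% of all genes but 9% of members had a mean of at least 5. No excess of channel genes in a group can be read from them. None of the genes named for DPM vehicle had an unadjusted p under 0.05 in the authors' deposited table for the DPM response.

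Genes that work with these channels without sharing their symbols were taken from a list of 58, of which 37 had a probe set of a single symbol and 18 a mean level of at least 5. Over these 18 the median E2 difference was -0.027 in WT and -0.0034 in DPM, and DPM minus WT had a median of -0.053. In WT, 1 had an unadjusted p under 0.05 in the authors' deposited table: Rgs4, an inhibitor of G protein signalling, was higher with E2 by 0.49 ± 0.16 (p = 0.0218, adjusted limma p = 0.614). That is 1 of 18, where 6.76% of all genes had such a p. In DPM and for the difference between responses there were 0 at that unadjusted limma p, where 5.01% and 4.12% of all genes stood, and in all 5 comparisons 0 at an adjusted one. Averaged over genotypes, Rgs4 (0.41 ± 0.14) and Rrad (-0.27 ± 0.097), an inhibitor of L-type calcium channels, had an unadjusted limma p under 0.05, as did 7.59% of all genes. Averaged over treatments, Camk2d, a calmodulin-dependent kinase, did so with a DPM minus WT difference of -0.34 ± 0.12, as did 5.68% of all genes. With 18 genes these counts are close to the background shares.

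At 1.5-fold and without such a p stood Rgs2 (-0.73 ± 0.38), another inhibitor of G protein signalling, in WT, where 2.03% of all genes did. In DPM so did Rgs5 (-0.62 ± 0.35), of the same family, and Orai1 (-0.59 ± 0.50), the pore of store-operated calcium entry, beside 3.25% of all genes. The difference between responses reached 1.5-fold for Rgs2 (0.62 ± 0.64) and Orai1 (-0.60 ± 0.62), beside 5.93% of all genes. Camk2g differed by -0.66 between DPM and WT in vehicle, where 2.62% of all genes reached 1.5-fold. Atp2a2, the SERCA2 calcium pump, had levels of 10.37 to 10.43, with E2 differences of 0.014 ± 0.091 in WT and 0.0065 ± 0.12 in DPM.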

How the data were processed

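RNA of pooled aortas was hybridised to Affymetrix mouse arrays. The authors' deposited values are log2 levels, 1 per group, with 3 log2 differences and the unadjusted p-value of each; GCRMA and limma are named in the submitters' processing notes, with no version or role. Symbols came from the platform annotation, updated with RefSeq (GRCm38.p6): 20393 probe sets had 1 symbol, 691 several and 1606 none, and only the first kind was used.

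Members and lists were chosen with earlier results of these data known. Genes with a mean of the 4 levels of at least 5 were tested (4927), each by its highest probe set, and every such member was named; deposited p-values were adjusted by Benjamini-Hochberg with a threshold of 0.05. SEs were recovered from the deposited differences and p-values at 6.44 total degrees of freedom, where SE ratios to the WT response were constant over 5964 probe sets, at 1.33 for DPM and 1.66 for the difference. The SE of a difference averaged over treatments or genotypes is then that of the difference between responses divided by 2, and the latter bounds the SE of a genotype difference within a treatment; the averages were added after seeing the data. The median SE over all genes was 0.15 for the WT response, 0.20 for DPM and 0.25 for their difference; precision rests on the few arrays per group. The sources used here do not say whether replicates were separate pools, and if not, p-values measure technical spread. The recovery was tested on simulated data. Python 3.11.15 with scipy 1.17.1 was used, and alternatives of scaling, level filter, probe set and threshold were tried.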

Additional observations from a re-analysis of the deposited data

Results flagged for a closer look

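Kcnj8, the Kir6.1 pore gene, was picked out because its responses to E2 differed between the genotypes by the deposited test of that difference: the DPM response minus the WT response was 0.95 ± 0.32. The unadjusted p was 0.0246 in the authors' deposited table and the adjusted limma p was 0.990, so it does not pass over all genes. Of all genes, 4.12% had an unadjusted p under 0.05. Kcnj8 reached the level threshold only through DPM E2, the group that also gives this difference.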

How the results depend on the processing

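Each group is 1 level, so no sample could be left out. No paired analysis was possible because the replicates of each group are pooled in 1 column. The number of members at the level threshold was 14 at a mean of 4 and 4 at a mean of 6. With no filter on level, 2 of 100 members met an unadjusted limma p under 0.05 in each of several comparisons. These were WT, DPM, the difference between responses and the genotype average, beside 3.95%, 3.29%, 2.81% and 3.47% of all genes. Such shares are not like for like, as 43% of members but 24.3% of all genes lay at the lowest level in every group. Of the 9, an unadjusted limma p under 0.05 was met in WT by 2 when quantile normalized (7.04% of all genes). For the difference between responses it was met by 2 when centred (3.41%) and 2 when quantile normalized (3.57%). For the E2 average it was met by 3 when centred (6.58%) and 3 when quantile normalized (6.66%), with Kcne4 added. At a p of 0.01, 0 members were left for the difference between responses (0.751%) and 1 for the E2 average (2.09%). DPM minus WT in E2 at 1.5-fold gave 2 of 11 members with a filter of 5 in any group (2.17%). It gave 3 of 100 with no filter (1.4%) and 0 at 2-fold (0.101%). Kcnk3, the member added by the filter of 5 in any group, reached 5 only in WT E2. That level also gives its difference, so the 2 of 11 supports nothing about the channel genes. By adjusted p, 0 members passed under any setting run. When centred and when quantile normalized, Kcnj8 in DPM was 0.94 and 0.98, Trpv2 in WT 0.42 and 0.42, and Kcnab1 in the genotype average -0.72 and -0.71, each with an unadjusted limma p under 0.05.

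Of 168 gene values under alternatives, 19 changed sign, all from values of at most 0.18 in size. Centring subtracted the median of all genes, 0.040 for the E2 average and 0.081 for the DPM response, more than each value it reversed. For the other settings the cause was not tested. When centred, the E2 average became -0.023 for Kcnab1, -0.032 for Trpm7 and -0.012 for Trpc4ap, and the DPM response of Trpc4ap -0.062. When quantile normalized these were -0.019, -0.026, -0.0067 and -0.041, and the E2 average of Kcnmb1 became -0.0053. At the next probe set the E2 average was -0.36 for Kcnab1, -0.10 for Trpm7 and -0.14 for Kcnmb1. There, Trpm7 gave -0.13 in WT and 0.061 for the difference between responses, and Kcnmb1 -0.050 in DPM. With the mean over probe sets the E2 average was -0.17 for Kcnab1, -0.048 for Trpm7 and -0.052 for Kcnmb1, and Trpm7 gave -0.035 in WT.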

Other observations

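Below the level threshold, Kcnn4 encodes the intermediate-conductance calcium-activated potassium channel of endothelium and leukocytes. Its levels were 3.75 in WT vehicle, 3.40 in WT E2, 3.33 in DPM vehicle and 4.10 in DPM E2. The DPM response minus the WT response was 1.13 ± 0.49, at an unadjusted p of 0.0585 in the authors' deposited table, and a further probe set of Kcnn4 gave 0.055 ± 0.097. Kcnip4, a calcium-binding partner of Kv4 channels, was the 1 member under 5 with an unadjusted p under 0.05 in the DPM response (-0.17 ± 0.054, p = 0.0172 in the authors' deposited table), at levels of 3.16 to 3.37. That is 1 of 91, where 2.16% of all 7467 genes under 5 had such a p. A further probe set of Kcnip4 gave 0.034 ± 0.27 in the DPM response, opposite in sign. In WT the 1 member under 5 with such a p was Trpm5, whose levels of 2.29 in vehicle and 2.34 in E2 lie at the bottom of the scale. That is again 1 of 91, where 2.1% of all genes under 5 had such a p. A further probe set of Trpm5 gave -0.024 ± 0.018 in WT, also opposite in sign. These genes were chosen after their values were seen.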
